A study of Mus musculus with 2 samples.

Results

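The 9 mouse genes Rbfox1, Rbfox2 and Rbfox3 and Celf1 to Celf6 encode RNA-binding proteins that regulate alternative splicing in the brain. A listed m6A site was assigned to 1 of them when it lay inside the gene's GENCODE M21 interval on GRCm38 and on the gene's strand. This gave 1402 positions of the 219409 positions listed over both libraries. The cerebellum list held 310 of its 79355 sites there, and the cerebrum list held 1177 of 188295. The genes were chosen by their counts of listed sites in earlier work on these libraries, so those counts are given as a description, with no test.

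Both lists came from GLORI, an assay in which glyoxal and nitrite deaminate unmethylated adenosines so that they are read as G, while m6A is still read as A. A female F1r mouse at postnatal day 0 (P0) gave the poly(A)+ RNA, with 1 library from its cerebellum and 1 from its cerebrum. F1r is the offspring of a C57 mother and a PWK father, so each transcript could come from either strain, and the lists do not separate them. The lists give positions only, without methylation rate or reads, and the depth behind each site is unknown. There is therefore no replicate error between the tissues, and a site missing from a list may be unmethylated or too thinly covered. Intervals in parentheses are 95% Wilson intervals and cover counting error over sites only. In bulk tissue, fewer cells of a type and less RNA per cell cannot be told apart.

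m6A is written by a methyltransferase complex that favors the DRACH motif (D is A, G or T, R is A or G, and H is A, C or T, with the methylated A before C). In mature mRNA it gathers in long exons, around stop codons and in 3′ UTRs, where reader proteins can alter the stability of a transcript. Rbfox proteins bind UGCAUG beside alternative exons, and Rbfox3 is NeuN, a marker of neuronal nuclei. Celf proteins bind GU-rich sequence in introns and in 3′ UTRs. Celf1 and Celf2 form 1 branch of that family, with wide expression, and Celf3 to Celf6 form the other, with expression mostly in neurons.

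As a check of the tissue labels, 12 of 12 forebrain genes had a DRACH site in an exon in the cerebrum list and 5 of 12 in the cerebellum list. Of 10 hindbrain genes, 5 had one in the cerebellum list and 2 in the cerebrum list. Over all coding genes the shares with such a site were 34.3% in the cerebellum list and 44.2% in the longer cerebrum list. Among the hindbrain genes, Barhl1, a factor of granule cell precursors, had 11 sites in the cerebellum list and 0 in the cerebrum list. Gbx2 went the other way, with 1 and 2, and Atoh1, Pax2, Pax3, Ptf1a and Skor2 had 0 in both lists.

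The following DRACH sites, for 8 of the 9 genes the one listed in both libraries and nearest to the stop codon, show the sequence that carried the mark. The capitals mark the 5-mer with the modified A at its center.
Rbfox1 (chr16:7411496-7411516, plus strand): accaaacgAAACTttaaaaag
Rbfox2 (chr15:77084075-77084095, minus strand): ctagtagaGGACTctatagca
Rbfox3 (chr11:118490646-118490666, minus strand): cggctccaGAACTctggggca
Celf1 (chr2:91013499-91013519, plus strand): tgccctgaAGACTcagctact
Celf2 (chr2:6542925-6542945, minus strand): tcagagacAGACTgtccttcc
Celf3 (chr3:94488568-94488588, plus strand): gagttcacAGACTcagagatc
Celf5 (chr10:81461770-81461790, minus strand): ctacagttGAACTtggaatgt
Celf6 (chr9:59606272-59606292, plus strand): ggaccaaaGGACTattgcttt
Each of these 5-mers ended in ACT, as did 61.0% (51.4% to 69.7%) of all the members' exonic DRACH sites and 58.2% of those of all genes. No sequence is shown for Celf4, whose nearest shared DRACH site, a GAACT, lay 108 nt after the stop codon. In Celf2 a shared site outside DRACH, an AGACG, lay nearer, at 121 nt. The site of Celf3 lay in the coding sequence, ahead of the stop codon, and the others shown lay in 3′ UTRs, from 77 nt (Rbfox2) to 4151 nt (Celf2) after the stop codon.

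All 9 genes had at least 1 DRACH site in an annotated exon in both lists, where 34.3% of 21951 coding genes had one in the cerebellum list and 44.2% in the cerebrum list. Because the genes were chosen by their counts of listed sites, this comparison describes the choice and shows no enrichment. In exons, the 9 genes held 57 DRACH sites in the cerebellum list and 99 in the cerebrum list, and 51 positions were shared. The ratio of these totals, 1.74, was near the 1.72 of all coding genes. At least 2 times as many sites in the cerebrum were counted for 5 of the 9 genes (background 55.2%), and at least 2 times as many in the cerebellum for 0 of 9 (background 4.58%). Of the exonic DRACH sites in the cerebellum list, 89.5% (78.9% to 95.1%) were also in the cerebrum list, against 83.3% over all coding genes. In the other direction the shares were 51.5% (41.8% to 61.1%) and 48.4%. Both intervals included the share of all coding genes.

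**Figure D1:**
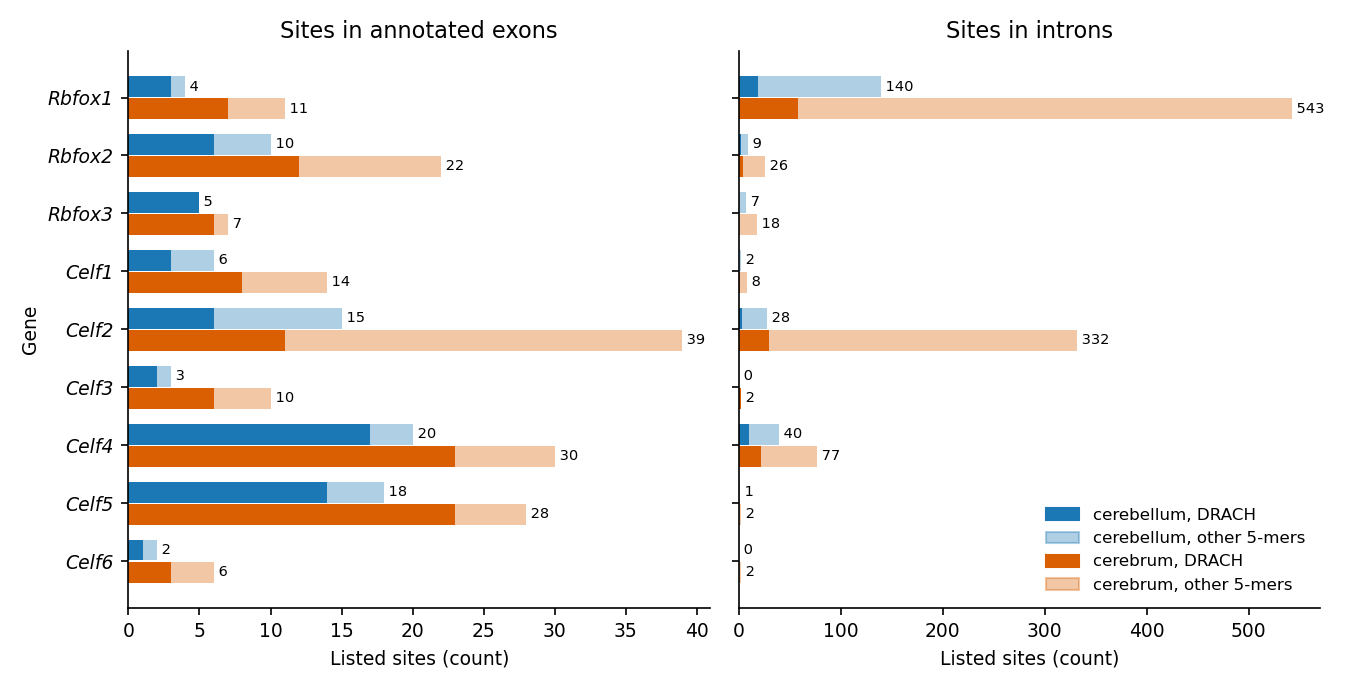
Listed sites per gene in annotated exons (left) and introns (right), on linear count axes, with 1 bar per library and the DRACH sites in the darker shade. Celf4 and Celf5 hold the most exonic DRACH sites, and Rbfox1 holds the most intronic sites in both libraries, followed by Celf4 in the cerebellum (40) and by Celf2 in the cerebrum (332).

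Celf4 and Celf5 had the most exonic DRACH sites of the 9 genes in both lists. With sites outside DRACH counted too, Celf2 had the most in the cerebrum, 39 exonic sites, against 30 in Celf4 and 28 in Celf5. Most of those 39 lay on no complete coding isoform, only in exons of retained intron, processed or nonsense-mediated decay transcripts. Few of the sites of Celf4 and Celf5 did, so this order depends on what is annotated as an exon. Celf4, which in mice restrains neuronal excitability and binds many 3′ UTRs, had 17 exonic DRACH sites in the cerebellum list and 23 in the cerebrum list, with 16 in both. Celf5 had 14 and 23, and the cerebrum list included all 14 of the cerebellum. The other members of the neuronal branch had few: Celf3 had 2 and 6, and Celf6 had 1 and 3. The broadly expressed Celf1 had 3 and 8, and Celf2 had 6 and 11, of which 3 positions were shared. Among the Rbfox genes, Rbfox2, a regulator also active outside neurons, had 6 and 12, Rbfox3 had 5 and 6, and Rbfox1, a neuronal and muscle splicing factor, had 3 and 7.

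These counts depend on how many DRACH adenosines a transcript offers, so the share listed was computed on the longest complete isoform of each gene. Celf4 had 17 of 83 DRACH adenosines listed in the cerebellum, 20.5% (13.2% to 30.4%), and 23 of 83 in the cerebrum, 27.7% (19.2% to 38.2%). Of the 7076 and 9094 coding genes with at least 1 listed adenosine and at least 20 to offer, 95.3% and 95.9% had a lower share. Celf5 had 14 of 87 listed in the cerebellum, 16.1% (9.83% to 25.2%), and 22 of 87 in the cerebrum, 25.3% (17.3% to 35.3%), above 91.4% and 94.4% of genes. Celf3 reached 15.4% (7.25% to 29.7%) in the cerebrum, from 6 of 39 adenosines, and its interval overlapped those of Celf4 and Celf5. Celf1, with 8 of 138 in the cerebrum, and Celf2, with 8 of 181, had shares of 5.80% (2.97% to 11%) and 4.42% (2.26% to 8.48%), where the median gene had 6.67%. Their intervals and those of Rbfox1 (2 of 57), Rbfox2 (12 of 113) and Rbfox3 (1 of 63) in the cerebrum each held values on both sides of that median. The longest isoform leaves out most of the exonic DRACH sites of Rbfox1 and Rbfox3. With all annotated exons joined, Rbfox1 had 7 of 85 listed in the cerebrum, 8.24% (4.05% to 16%) in place of 3.51%, and Rbfox3 had 6 of 113, 5.31% (2.46% to 11.1%) in place of 1.59%. Joined exons gave Celf4 19.1% and 25.8%, and Celf5 12.1% (7.33% to 19.2%) and 19.0% (12.9% to 27.0%), with the cerebellum first. In the cerebrum this interval of Celf5 overlapped that of Rbfox1. On the longest isoform, the interval of Celf5 overlapped that of Rbfox2 in both libraries (2.46% to 11.1% and 6.18% to 17.6%). In the cerebellum it also overlapped those of Celf3, Rbfox3 and Celf6. The order of the genes other than Celf4 and Celf5 was not separated by the intervals.

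**Figure D2:**
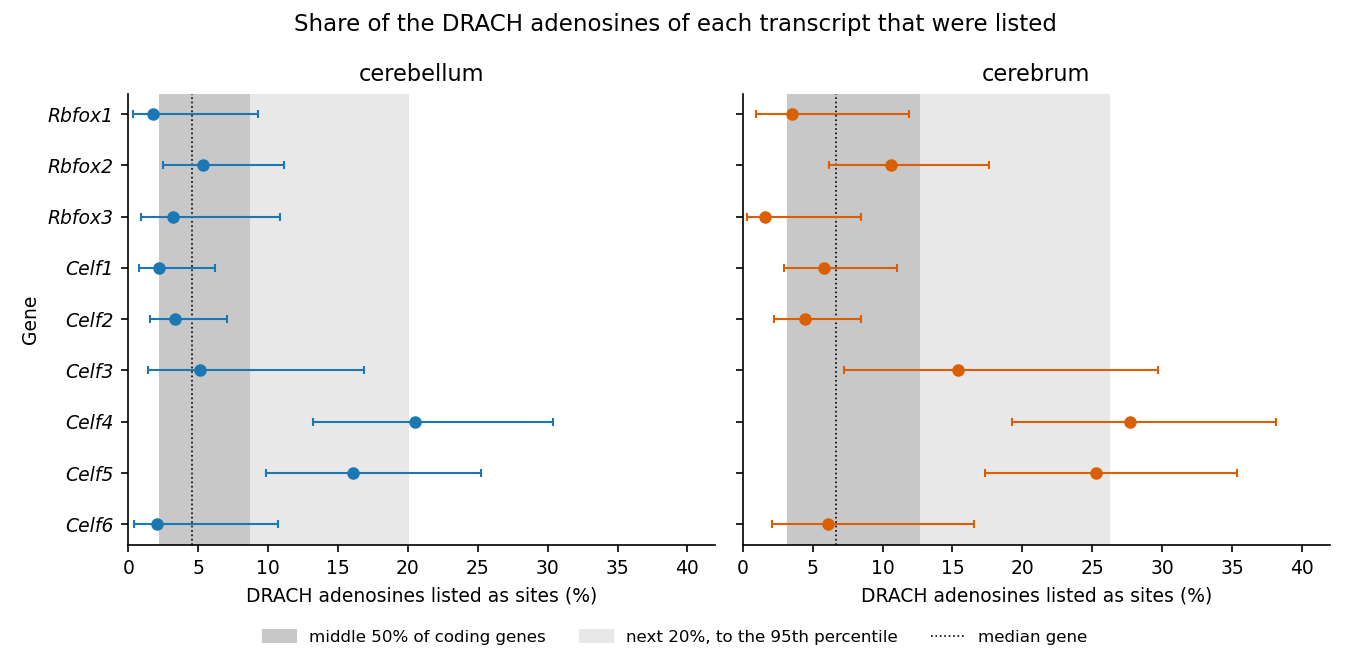
Percentage of the DRACH adenosines of each gene's longest complete isoform that were listed in the cerebellum (left) and the cerebrum (right); points are shares and bars are 95% Wilson intervals. The dark band holds the middle 50% of coding genes, the light band reaches the 95th percentile, and the dotted line is the median gene; Celf4 lies past the light band in both libraries.

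On complete coding isoforms, 89 of the 96 exonic DRACH sites of both lists lay in the last exon, 92.7% (85.7% to 96.4%), which held 70.6% of the DRACH adenosines. In 3′ UTRs were 52 of 55 sites in the cerebellum, 94.5% (85.1% to 98.1%), and 83 of 90 in the cerebrum, 92.2% (84.8% to 96.2%). Over all genes the shares were 57.3% and 55.7%. Of the 105 exonic DRACH positions of both lists, the 9 left out here lay on no complete coding isoform, 5 of them in Rbfox1, 3 in Celf2 and 1 in Celf5. The members' transcripts have long 3′ UTRs, which held 70.4% (67.3% to 73.3%) of their DRACH adenosines, so the share of sites there was also above the share of adenosines. Coding sequence held 24.8% of the adenosines and 4.17% (1.63% to 10.2%) of the 96 sites of both lists. In the coding sequence, 4 of 197 DRACH adenosines were listed in the cerebrum, 2.03% (0.792% to 5.10%), against 7.87% over the 9580 coding genes with a site. In the 3′ UTRs, 78 of 581 were listed, 13.4% (10.9% to 16.4%), against 10.5% over those genes.

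Few of the sites were near the stop codon. Within 200 nt of it lay 4 of 55 sites in the cerebellum, 7.27% (2.86% to 17.3%), and 9 of 90 in the cerebrum (interval 5.35% to 17.9%). Over all genes the cerebellum list gave 21.9% and the cerebrum list 22%, and 9.41% (7.65% to 11.5%) of the DRACH adenosines of the members' transcripts lay in that window. Sites more than 100 nt from an exon junction made up 94.5% in the cerebellum and 94.4% in the cerebrum, near the 93.1% and 91.7% of all genes. Of the members' DRACH adenosines, 72.1% (69.0% to 75%) lay that far from a junction.

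**Figure D3:**
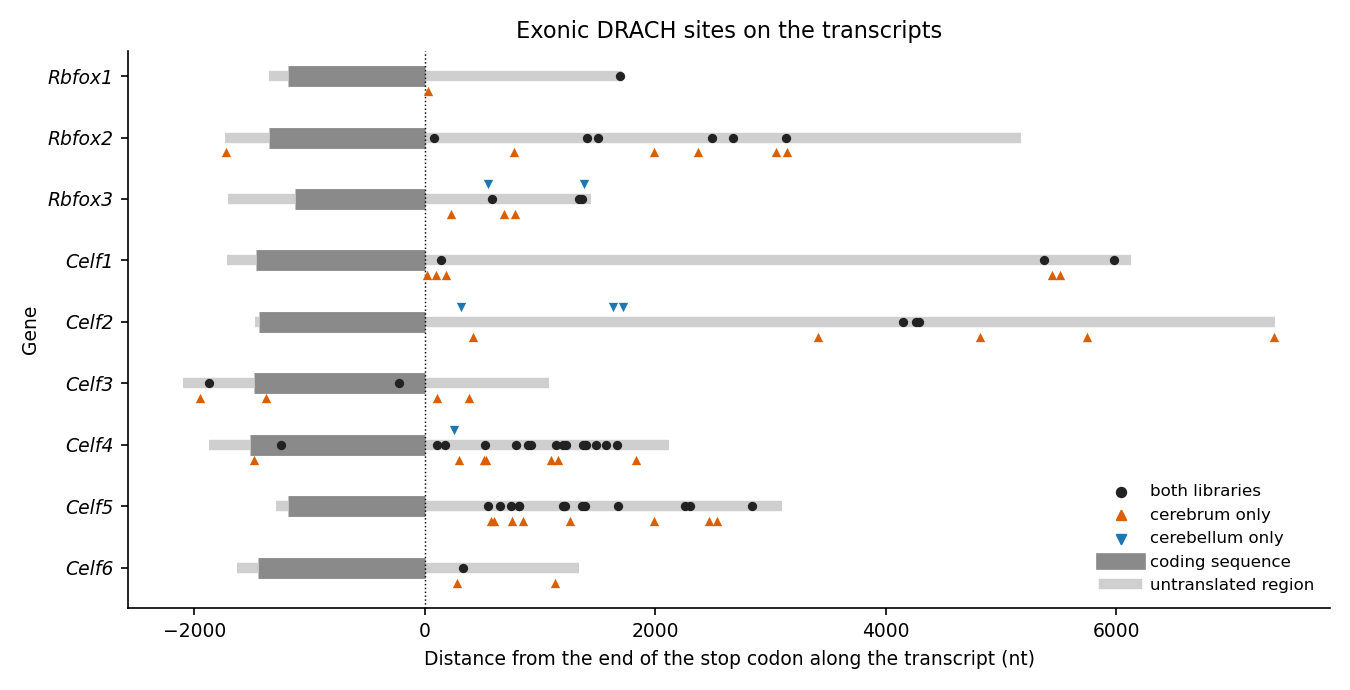
DRACH sites of the 9 genes drawn by distance in nt from the end of the stop codon; thick bars are the coding sequence and thin bars the untranslated regions of the longest complete isoform. Sites on another isoform (3 in both libraries and 2 in the cerebrum only for Rbfox3) are placed by that isoform's own stop codon, and nearly all markers lie to the right of 0.

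Each gene had its own layout along the 3′ UTR. In Celf4, 22 sites spread from 108 to 1837 nt after the stop codon, with a median gap of 69 nt, and 15 of them were in both libraries. In Celf5, 22 sites lay between 546 and 2837 nt with a median gap of 55 nt, and none lay closer to the stop codon than 546 nt. Rbfox2 had 11 sites between 77 and 3148 nt, although its 3′ UTR extends to 5172 nt. In Celf1 the 8 sites formed separate groups, 4 within 16 to 187 nt of the stop codon and 4 between 5374 and 5981 nt, near the end of a 3′ UTR of 6132 nt. In Celf2, 3 of the 11 sites were shared, and they lay between 4151 and 4289 nt. The 3 found only in the cerebellum lay at 311, 1636 and 1720 nt. The 5 found only in the cerebrum lay at 416 nt and from 3411 to 7375 nt, so the ranges overlapped. With positions only, coverage along the 3′ UTR was not tested as a source of the difference between the lists.

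The densest group in Celf5 had 3 sites spaced by 10 nt, each listed in both libraries at 1201, 1211 and 1221 nt after the stop codon. They fit in 30 nt, shown here because 3 different DRACH 5-mers in a row were listed.
Celf5 (chr10:81461101-81461130, minus strand): cccAGACTgatggTGACTgtcagGAACTgt

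Among the 9 DRACH 5-mers compared, GGACT had the highest share listed in both libraries. Of the 42 GGACT adenosines on the members' longest isoforms, the cerebellum list held 16, or 38.1% (25% to 53.2%), and the cerebrum list held 19, or 45.2% (31.2% to 60.1%). Over all coding genes with a site these shares were 16.1% and 23.1%. AAACA was listed at 1 of 85, 1.18% (0.208% to 6.37%), and 4 of 85, 4.71% (1.85% to 11.5%), against 1.94% and 2.79% over all genes. TAACA was listed at 0 of 25 in both lists (an upper bound of 13.3%), against 0.897% and 1.43%. These intervals included the shares of all genes. The members' exonic DRACH sites held GGAC in 45.7% (36.5% to 55.2%), against 18.9% (16.5% to 21.7%) of their DRACH adenosines and 30% of the exonic DRACH sites of all genes.

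In the coding sequence, DRACH sites were listed in Celf3 and Celf4 only. Those of Celf4 lay in exon 1, at codons 11 (cerebrum) and 88 (both libraries). Those of Celf3 lay in exon 1 at codon 37, in the cerebrum, and in exon 11 at codon 422, in both libraries. After alignment of the coding sequences within each branch, the 4 sites gave 12 comparisons with a paralog. The aligned adenosine stood in DRACH in 4 of 12, and it was listed in 1 of 12. That match joined codon 37 of Celf3 to codon 37 of Celf5, both in exon 1 and both listed in the cerebrum only. The sequences are shown because both positions were listed although the 5-mer of Celf5 ends in G and is outside DRACH. Sites of that class rarely recurred: of the members' exonic cerebrum sites outside DRACH, 8.82% were also in the cerebellum list (background 12.4%). With both calls from 1 library, a conserved mark was not tested.
Celf3 (chr3:94479205-94479225, plus strand): cttcgagcTGACTgtcatcaa
Celf5 (chr10:81482487-81482507, minus strand): ctacgagcTGACGgtgctcaa
Celf6 had the same TGACG at the aligned position and Celf4 had TTACG, and neither was listed. The coding sequences of Celf3 and Celf5 were 69.3% identical over 1179 aligned nt. The Rbfox genes had no DRACH site in their coding sequence in either list.

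In the first exon of a transcript, DRACH sites were listed in Rbfox1 (5), Celf3 (3), Celf4 (2) and Rbfox2 (1). In Rbfox1 these were all of its exonic DRACH sites outside the 3′ UTR, and they lay in a noncoding first exon of 510 nt (chr16:5885355-5885864), 3 exons ahead of the exon with the start codon. Their positions were between 12 and 328 nt from the start of that exon, 2 of them in both libraries and 3 in the cerebrum only. The transcript is annotated with an incomplete end, so these sites are left out of the shares by transcript region above. The shared pair lies 14 nt apart.
Rbfox1, exon 1 (chr16:5885575-5885595, plus strand): ccagctcaGGACAgatctgag
Rbfox1, exon 1 (chr16:5885589-5885609, plus strand): atctgagaGGACCtagcgcat

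Since the proteins bind RNA, their own motifs were counted around the sites. Within 50 nt of the 96 exonic DRACH sites on complete isoforms, TGCATG (the Rbfox motif as DNA) occurred at 2, or 2.08% (0.573% to 7.28%), against 2.57% of the DRACH sites of all genes. GTGTGT occurred at 4, 4.17% (1.63% to 10.2%), against 3% of them. TGTTTG occurred at 7, 7.29% (3.58% to 14.3%), against 4.36%. The motifs were read on the transcript strand only, and none of these intervals excluded the share of all genes. For TGTTTG other windows did: within 25 nt it occurred at 5 of the 96, 5.21% (2.24% to 11.6%), against 2.01%, and within 100 nt at 15, 15.6% (9.70% to 24.2%), against 8.87%. In each library alone, the intervals for TGTTTG in these windows included the share of all genes. Windows of neighboring sites can overlap. In Rbfox2 the same TGTTTG began 17 nt after a shared site and 2 nt after a cerebrum-only site, and was counted at both. The intervals for sites of both lists treat such windows as independent and are too narrow, so a difference for TGTTTG was not established. The TGCATG matches lay 42 nt before a shared site of Celf2 and 16 nt before a site of Rbfox3 that was listed in the cerebellum only.

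Introns held most of the sites. In the cerebellum 227 of 310 sites were intronic, 73.2% (68.0% to 77.8%), and in the cerebrum 1010 of 1177, 85.8% (83.7% to 87.7%). Over all coding genes the shares were 17.8% and 26.1%, without correction for intron length. Gene by gene, introns held most sites of Rbfox1, Rbfox3, Celf2 and Celf4 in both lists, and of Rbfox2 in the cerebrum only. They held fewer in Celf1 (25% and 36.4%), Celf3 (0% and 16.7%), Celf5 (5.26% and 6.67%) and Celf6 (0% and 25%). Rbfox1, whose gene spans 1526 kb, had 140 intronic sites in the cerebellum list and 543 in the cerebrum list, ranks 13 and 6 among coding genes. Celf2, spanning 970 kb, had 28 and 332, and Celf4, spanning 277 kb, had 40 and 77. Most of these were outside DRACH: the DRACH share in the members' introns was 15% (10.9% to 20.2%) for the cerebellum list and 11.6% (9.75% to 13.7%) for the cerebrum list, against 14.9% and 12.5% in the introns of all genes. Celf4 had 10 of 40 (25%, 14.2% to 40.2%) and 22 of 77 (28.6%, 19.7% to 39.5%). Only its interval in the cerebrum lay above the share of all genes, and that in the cerebellum included it.

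The DRACH sites in introns recurred between the libraries more often than the others. Of those in the cerebellum, 44.1% (28.9% to 60.5%) were also in the cerebrum list (background 39.1%), and 12.8% (7.93% to 20.1%) in the other direction (background 13.4%). Of the intronic sites outside DRACH, 6.74% (3.98% to 11.2%) of those in the cerebellum recurred (background 7.28%), and 1.46% (0.853% to 2.47%) of those in the cerebrum (background 2.05%). Sites outside DRACH also came in pairs exactly 6 nt apart, 15 pairs among 193 sites in the cerebellum and 25 among 893 in the cerebrum, where 5 or 7 nt gave 0 and 1 pairs at each distance. Over all introns there were 716 such pairs among 11326 sites and 1317 among 40286. As shares of sites, the members' 7.77% (4.77% to 12.4%) and 2.80% (1.90% to 4.10%) had intervals that included the 6.32% and 3.27% of all introns.

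**Figure D4:**
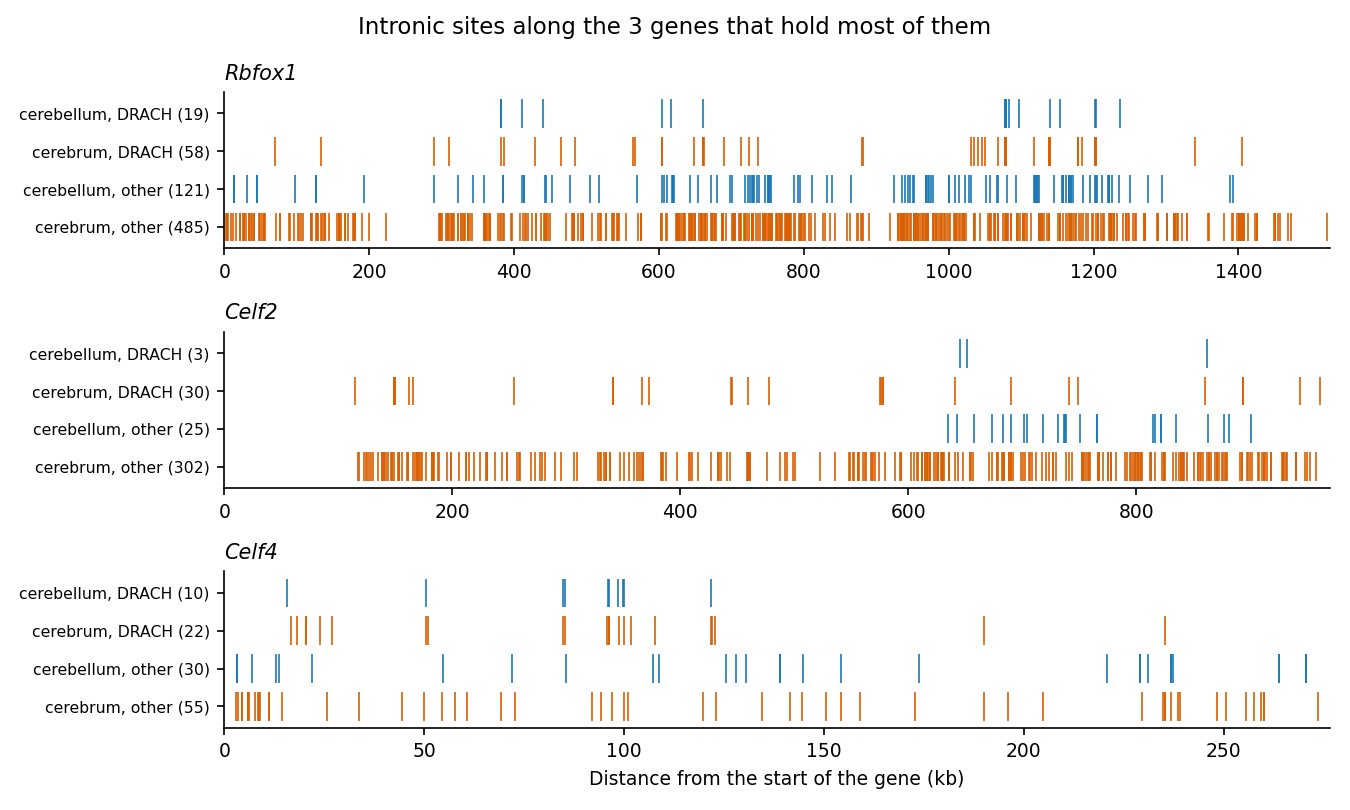
Intronic sites along Rbfox1, Celf2 and Celf4 by distance in kb from the gene start, with 1 row for each library and motif class and 1 tick per site. The Celf2 rows of the cerebellum are empty before 635 kb, while those of the cerebrum start at 114 kb.

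Along Celf2, the tissues differed in where intronic sites began. The 14 complete isoforms start in 4 places, at 114 kb (1 isoform), 428 kb (3), 625 kb (5) and 788 kb (5) from the start of the gene interval. All 28 intronic sites of the cerebellum lay between 635 and 901 kb, and the first of them was 10.2 kb after the starts at 625 kb. In the cerebrum, the first intronic site was 0.788 kb after the start at 114 kb, and 185 of 332 sites, 55.7% (50.3% to 61.0%), lay before the first cerebellum site. Between the starts at 114 and 428 kb the cerebrum had 113 sites and the cerebellum 0, and between 428 and 625 kb the counts were 64 and 0. Downstream the numbers were 71 and 18 between 625 and 788 kb, and 84 and 10 beyond. This division of the gene was made after the sites had been seen, and which isoforms were expressed was not tested. In Rbfox1, by contrast, intronic sites of both libraries ran over most of the gene, from 13.3 to 1393 kb in the cerebellum and from 1.65 to 1523 kb in the cerebrum.

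Rbfox1 also held the densest intronic group of DRACH sites among the 9 genes. In 2546 nt (chr16:6962663-6965208, plus strand) there were 13 DRACH sites, 5 in both libraries and 8 in the cerebrum only, with 3 sites outside DRACH. Of the 51 DRACH adenosines in that stretch, 13 were listed, 25.5% (15.5% to 38.9%), whereas 68 of 29956, 0.227%, were listed over all introns of Rbfox1. Counting the most intronic DRACH sites in any 3 kb, Rbfox1 ranked 9 among 1909 genes with such a site, for which the median was 1 and the highest 19. The stretch was picked for its density, so these values only describe it. It lies 153 kb after the nearest upstream exon and 105 kb before the next GENCODE exon, 46.9 kb before the next RefSeq exon, with no other GENCODE gene on either strand and no RefSeq exon on the plus strand. In 10 of the 13 sites the 5-mer ended in ACT, an ending also found in 61.0% of the members' exonic DRACH sites. Repeat-masked sequence held 1 of the 13. The shared sites are shown because intronic DRACH sites found in both tissues were few.
Rbfox1, intron (chr16:6962653-6962673, plus strand): acactatcAGACTgtcaccat
Rbfox1, intron (chr16:6963080-6963100, plus strand): caaaaacaAAACTtaaatatc
Rbfox1, intron (chr16:6963878-6963898, plus strand): caagtgatGAACAttatttat
Rbfox1, intron (chr16:6963925-6963945, plus strand): tcaaacagAGACTaaaacttc
Rbfox1, intron (chr16:6964945-6964965, plus strand): ctcatgaaAGACActggtgaa

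**Figure D5:**
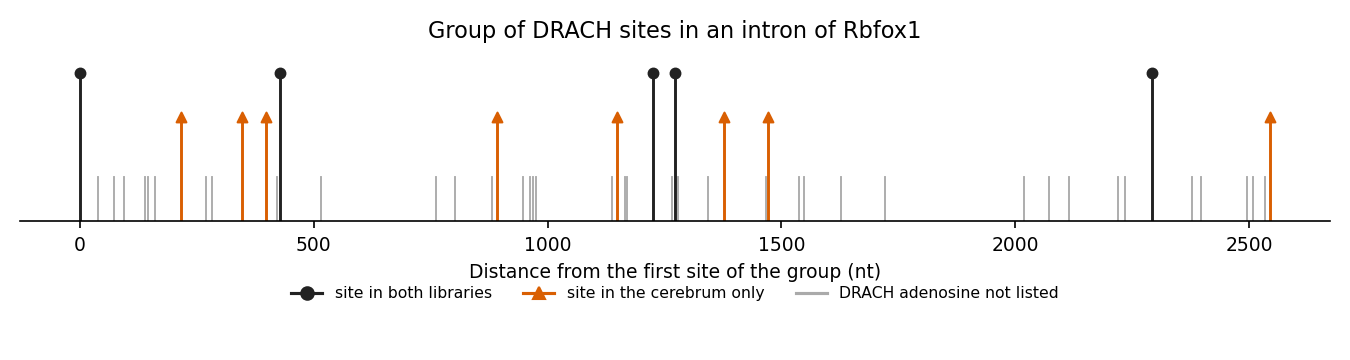
DRACH adenosines in the intronic stretch of Rbfox1 by distance in nt from its first site; tall black stems are sites in both libraries, orange stems are sites in the cerebrum only, and short gray ticks are the 38 adenosines that were not listed. Line height marks the class and carries no value.

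RefSeq exons that GENCODE M21 lacks held 70 of the 1209 intronic positions of both lists. Among them were 7 intronic DRACH sites, all in Rbfox1 and each listed in 1 library only. On the opposite strand of the 9 gene intervals the cerebellum list held 0 sites and the cerebrum list 2.

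Other splicing regulators were measured the same way, with no test of a difference. The SR proteins, general splicing activators, had 78.4% (62.8% to 88.6%) of their exonic DRACH sites in 3′ UTRs in the cerebellum and 79.2% in the cerebrum. For the Elavl, Nova and Ptbp genes, further neuronal regulators and their counterparts, the shares were 68.9% (57.7% to 78.3%) and 73.6%. For the Muscleblind genes, whose proteins often act on the same exons as Celf proteins, they were 41.2% (21.6% to 64.0%) and 51.9% (34.0% to 69.3%), with 9 and 12 sites in 5′ UTRs. A mixed list of 12 other splicing regulators, among them Srrm4, Qk, Tia1 and Tial1, reached 95.3% and 92.0%, near the members. Sites of 1 gene share a transcript, so these intervals are too narrow for a comparison of families.

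The genes whose counts by region and library were closest to those of Celf4 were Pid1, L3mbtl3 and Sephs1, by the summed difference of log2(count + 1) over 3 regions and 2 libraries. Pid1 had 1 site in the coding sequence and 17 in the 3′ UTR in the cerebellum, where Celf4 had 1 and 16, and 2 and 21 in the cerebrum, as Celf4 had. For Rbfox2 the closest were Nudt11, Ubl3 and Snhg11. Nudt11 had 7 sites in the 3′ UTR in the cerebellum and 10 in the cerebrum, where Rbfox2 had 6 and 11.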

How the data were processed

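Sites were called by the authors with GLORI-tools 1.0 and GENCODE 26 on mm10 and on its copy with PWK bases, the calls of each library were merged, and those with over 8 reads and a rate of methylation over 0.1 were retained. Deamination was run at 25 °C in place of 16 °C. The deposited values are positions and strands only (no score, unit other), so a site near either limit can drop out of 1 list. The name of the cerebrum file carries the short form of cerebellum, and the tissue was taken from the labels.

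From these lists, bases were read in GRCm38 with pysam 0.24.0, and regions were taken from GENCODE M21, which is not the release of the methods; a site went to the longest isoform with complete coding sequence that covers it. The reference base was A at 1401 of the 1402 sites. Lookups were tested on 3000 simulated sites. Coding sequences were aligned with mafft 7.526. With 1 library per tissue no difference between tissues was tested. Members and gene lists were chosen with earlier results of these data known. Named in full were all 9 genes, and sequences are those of the DRACH site nearest to the stop codon, preferring sites in both libraries (Celf4 is not shown), and of matching paralog positions. The sequences of the Celf5 triplet, the Rbfox1 exon and the Rbfox1 intron were chosen after the data were seen. Alternatives changed exon sets, isoform choice, windows, motifs and matching tolerance.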

Additional observations from a re-analysis of the deposited data

How the results depend on the processing

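Both libraries came from the same mouse, and with only this 1 pair no paired test was possible. Of 55 alternatives, 28 stayed within 1.5 times a count or within the interval of a share, and 27 did not. For each value below the cerebellum comes first. The total of sites fell to 83 and 167 in exons, to 91 and 216 for DRACH only, to 166 and 623 without Rbfox1, and to 96 and 224 when RefSeq exons were joined to those of GENCODE. The DRACH share of all the members' sites was 29.4% and 18.4%, against 62.1% and 46.7% over the whole lists. It became 77.6% for sites in both libraries, 68.7% and 59.3% in exons, and 41.6% and 24.2% without Rbfox1. The share of DRACH sites found in the other library was 72.5% (62.6% to 80.6%) and 30.6% (24.8% to 37.0%). Over all DRACH sites of the lists it was higher, 81.0% and 45.3%, outside both intervals. For the members it was 89.5% and 51.5% in exons, against 83.3% and 48.4% over all coding genes. In introns it was 44.1% and 12.8%, against 39.1% and 13.4%. The lower total thus did not appear within exons or within introns, where the intervals included the shares of all genes. Without Celf4 and Celf5 it was 60% and 20.3%. Counting every site, the 3′ UTR share in the cerebrum was 82.6%. Within 100 nt of the stop codon lay 1.82% and 3.33%. On RRACT in place of DRACH, 20.8% and 28.6% of adenosines were listed, where DRACH gave 6.42% and 10.5%. More than 50 nt from a junction lay 98.2% and 97.8%. In the cerebrum, TGCATG stood within 25 nt of 0% of sites and TGTTTG within 100 nt of 14.4%, against 8.77% over all genes. The alternatives without Rbfox1, without Celf4 and Celf5, and with RefSeq exons were chosen after seeing the data. The match between paralogs was 1 also within 3 nt. Since rates and reads are not in the lists, neither depth nor the limits of the site calls could be varied.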
